A study of Mus musculus with 9 samples.

Results

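The genes described here are the insulin-like growth factors Igf1 and Igf2, the receptor genes Igf1r and Insr, and the binding protein genes Igfbp2 to Igfbp7. They were taken by symbol from the deposited gene count table, in which all 10 symbols were found among 32594 genes, and all 10 passed the filter on low counts that left 15873 genes for testing. RNA from hindlimb skeletal muscle was measured in 4 libraries of SMN delta 7 mice (SMA), a model of spinal muscular atrophy in which too little SMN protein leads to loss of motor neurons and wasting of muscle, and in 5 libraries of wild type mice (WT), both on the FVB/N background. The comparison asked how RNA levels in SMA muscle differed from those in WT muscle. The labels used here give no age, sex or litter and do not describe the alleles or transgenes, and nothing in them says that each library came from its own animal, so p-values measure the spread between these libraries, which may be technical in part.

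IGF1 and IGF2 are secreted hormones that also act locally. They bind the receptor tyrosine kinase IGF1R, and IGF2 also binds an isoform of the insulin receptor, and both receptors signal through insulin receptor substrates, PI3-kinase and AKT to protein synthesis. The binding proteins hold IGFs outside the cell, where they can prolong the life of the hormone, keep it from its receptor or deliver it, and proteases release it again. In muscle, IGF1 is known for supporting growth, and IGF2 for the fetal period and for the differentiation of myoblasts.

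Library totals ran from 30746646 to 35087722 counts in SMA and from 24917665 to 34094645 counts in WT. Smn1, the mouse SMN gene, lay at 1.40 to 2.72 counts-per-million (CPM) in SMA and at 11.1 to 13.8 CPM in WT, which matched the labels in all 9 libraries. Here CPM refers to the scaled library total. Muscle fibre markers were abundant in every library, and summed to 64600 to 78800 CPM in SMA and 108000 to 160000 CPM in WT. Of these 10 markers 6 fell and 0 rose, where 27.2% of all tested genes fell. In a principal component analysis of all tested genes SMA 3 had a second component of -43.4, where the remaining SMA libraries had 14.6 to 15.4, and WT 5 had the highest value of the WT libraries on both, at 53.5 and 18.2. Y-linked transcripts were present in 1 SMA library and 4 WT libraries, and each group held a library of the less frequent kind only once (SMA 2 and WT 3), so sex was examined only as a term in the model.

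Of the 10 genes, 5 were higher and 4 lower in SMA, and 1 did not pass the test. The genes that rose were Igf2, Igf1r, Insr, Igfbp2 and Igfbp3, and those that fell were Igf1, Igfbp4, Igfbp5 and Igfbp7. Among all 15873 tested genes 54.9% passed at an adjusted p under 0.05 (quasi-likelihood test of edgeR, Benjamini-Hochberg adjustment), with 27.7% higher and 27.2% lower, so a call by itself was common in these libraries. SMA and WT libraries did not overlap for 8 of the 10 genes, with 5 above and 3 below, against 44.2% of all tested genes, of which 22.6% lay above and 21.7% below. The median absolute log2 fold change was 0.67 for the family and 0.39 for all tested genes. In bulk muscle, fewer cells of a type and less RNA per cell cannot be told apart.

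**Figure D1:**
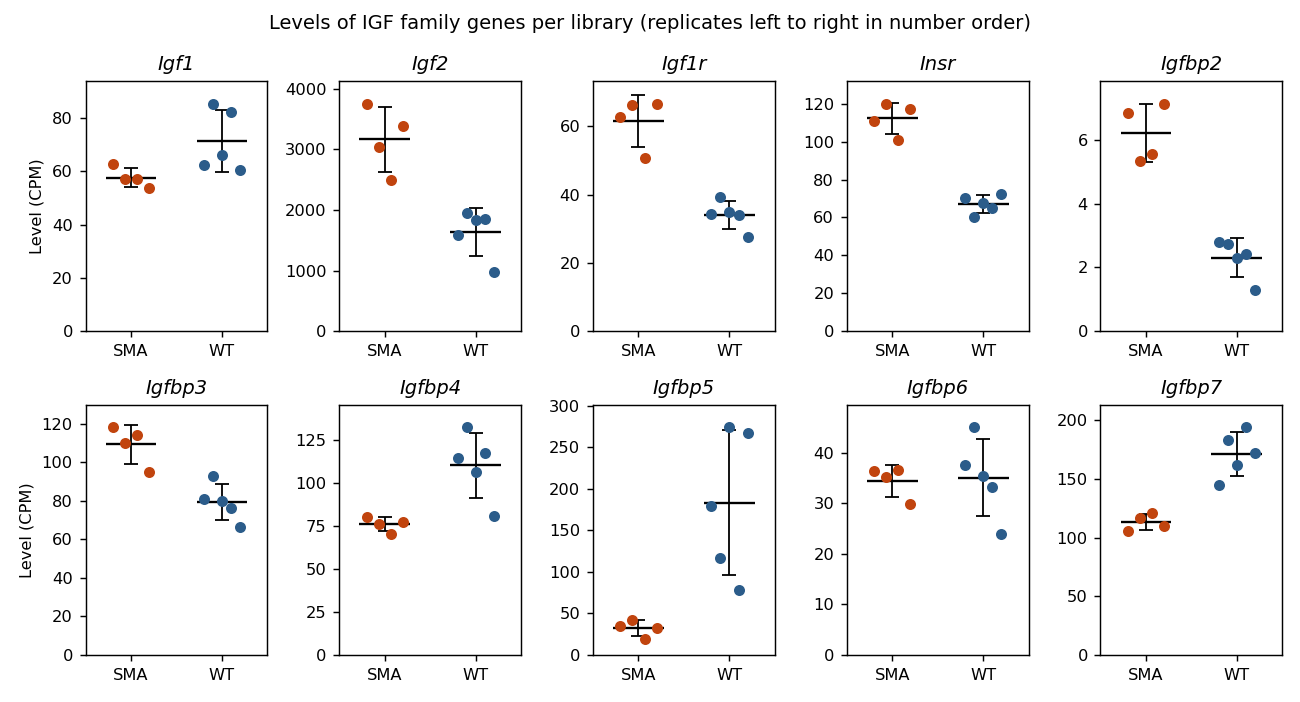
Level of each gene in CPM (vertical axes, from 0) in 4 SMA libraries (orange) and 5 WT libraries (blue). Points are libraries, the bar is the mean and the whiskers are the SD. Igf2, Igf1r, Insr, Igfbp2 and Igfbp3 lie higher in every SMA library than in any WT library, Igfbp4, Igfbp5 and Igfbp7 lie lower, and Igf1 and Igfbp6 overlap.

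The ligands moved in opposite directions, though the fall of Igf1 was small and its call was lost in some alternatives. Igf2 (chromosome 7, 142650766 to 142666816, minus strand, mm10), an imprinted growth factor gene expressed mainly from the paternal allele, had 3750, 3040, 2490 and 3380 CPM in SMA 1 to 4 and 1580, 1950, 1840, 1850 and 976 CPM in WT 1 to 5. Every SMA library was above every WT library, with SMA 3 the lowest of its group and WT 5 well below the other WT libraries. The mean was 3165 ± 536 CPM in SMA and 1640 ± 394 CPM in WT (SD, n = 4 and 5), a 1.93-fold difference. Its log2 fold change was 0.95 ± 0.19 (SE; adjusted p = 0.00125, edgeR).

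Igf1 (chromosome 10, 87858265 to 87937042, plus strand), the main target of growth hormone among the IGF genes, had 62.6, 57.1, 57.0 and 53.9 CPM in SMA 1 to 4 and 62.5, 85.4, 66.2, 82.3 and 60.6 CPM in WT 1 to 5. WT 2 and WT 4 were high, and SMA 1 lay level with WT 1 and above WT 5, so the groups overlapped. Its mean was 57.7 ± 3.63 CPM in SMA and 71.4 ± 11.6 CPM in WT (SD, n = 4 and 5). The fall of 0.31 ± 0.11 on the log2 scale (SE) passed narrowly, with an adjusted p of 0.0328 by edgeR. The edgeR call was lost at adjusted p-values of 0.07, 0.0519 and 0.0879 without SMA 2, SMA 3 and SMA 4, at 0.0688 and 0.0761 without WT 2 and WT 4, at 0.141 with sex in the model and at 0.632 with scaling to total counts.

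A ratio of both ligands within a library needs no scaling. Igf2 held 59.8, 53.3, 43.6 and 62.7 counts per Igf1 count in SMA 1 to 4 and 25.3, 22.8, 27.8, 22.4 and 16.1 in WT 1 to 5. The lowest SMA library was above the highest WT library. The mean log2 ratio was 5.76 ± 0.234 in SMA and 4.49 ± 0.298 in WT (SD, n = 4 and 5), a difference of 1.27 with p = 0.00794 by a two-sided exact permutation test (adjusted p = 0.0159 over 2 ratios), which is the smallest p that the 126 divisions of the libraries can give.

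The upstream sequence of Igf1 is shown because it was the single upstream window of the family that held a motif searched for here. RefSeq upstream windows on GRCm38.p6, from 250 bases before to 50 bases after the start site, were available for 9 of the 10 genes, and Insr was not matched. Searched on both strands were the FoxO motif GTAAACA, in 3.65% of all 32851 windows, the STAT5 motif TTCNNNGAA, in 8.3%, and the E-box CAGCTG, in 16.3%. No other searched motif is in the window shown, and a match is a description of letters only. The Igf1 window starts at 87860861, inside the gene span given above, which starts at 87858265. It is therefore upstream of a RefSeq start site but not of the start of that span. The first 250 bases of the Igf1 window (chr10:87860861-87861110, plus strand) read as follows, with the E-box at position -157 from the start site in capitals.
Igf1: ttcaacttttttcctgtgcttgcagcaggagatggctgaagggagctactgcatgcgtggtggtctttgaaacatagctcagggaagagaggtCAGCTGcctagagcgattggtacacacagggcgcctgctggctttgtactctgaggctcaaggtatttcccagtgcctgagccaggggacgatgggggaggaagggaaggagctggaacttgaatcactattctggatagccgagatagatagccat

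Other transcripts of the Igf2 locus were also higher. Igf2os, annotated on the opposite strand across exons of Igf2 (142659693 to 142670356, plus strand), had 5.03 to 11.3 CPM in SMA and 2.52 to 4.65 CPM in WT, a log2 fold change of 1.19 ± 0.24 (SE). Over all libraries its counts came to 0.257% of those of Igf2. Whether reads were assigned by strand is not given, so both genes may share reads. Mir483, a microRNA gene within an intron of Igf2, had 106, 90, 29 and 144 counts in SMA 1 to 4 and 8, 13, 8, 12 and 4 counts in WT 1 to 5. It rose by 2.95 ± 0.43 on the log2 scale (SE; adjusted p = 0.000139, edgeR). Igf2os and Mir483 were chosen after their values were seen. In an mRNA library such counts are reads over the hairpin's locus, not a measure of the mature microRNA. Its mature arms from RefSeq (GRCm38.p6), shown because this locus had the steepest rise at Igf2, have the seed (bases 2 to 8) in capitals, and the seeds of both arms differ.
mmu-miR-483-3p: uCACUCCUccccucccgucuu
mmu-miR-483-5p: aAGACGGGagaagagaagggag

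H19, the imprinted non-coding RNA gene that lies 72.6 kb from Igf2 on the same chromosome, had 21400, 17100, 12400 and 19000 CPM in SMA 1 to 4 and 9160 to 11300 CPM in WT. It rose by 0.74 ± 0.15 (SE) on the log2 scale, and SMA 3 was again the lowest of the SMA libraries, though above all WT libraries.

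Both receptor genes rose, and all SMA libraries were above all WT libraries for each. Igf1r (chromosome 7, 67952827 to 68233668, plus strand), which encodes the main signalling receptor for IGF1 and IGF2, had 62.8, 66.3, 50.6 and 66.6 CPM in SMA 1 to 4 and 34.4, 39.3, 34.8, 33.9 and 27.6 CPM in WT 1 to 5. SMA 3 and WT 5 were the lowest of their groups. Its log2 fold change was 0.86 ± 0.11 (SE; adjusted p = 4.87e-05, edgeR). Insr (chromosome 8, 3122061 to 3279617, minus strand), the insulin receptor gene, had 111, 120, 101 and 117 CPM in SMA 1 to 4 and 70.4, 60.4, 67.9, 64.9 and 72.3 CPM in WT 1 to 5. WT 5 was here the highest WT library. Insr rose by 0.74 ± 0.080 (SE; adjusted p = 1.33e-05, edgeR), the lowest adjusted p of the 10 genes.

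Within a library, Igf1r held 0.503 to 0.57 counts per Insr count in SMA and 0.382 to 0.651 in WT. The SMA libraries lay inside the WT range. The mean log2 ratio was -0.872 ± 0.0823 in SMA and -0.988 ± 0.275 in WT (SD, n = 4 and 5), and the difference of 0.116 lay within that spread, with p = 0.524 by the same exact test (adjusted p = 0.524 over 2 ratios). A miss does not show that the ratios are equal.

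**Figure D2:**
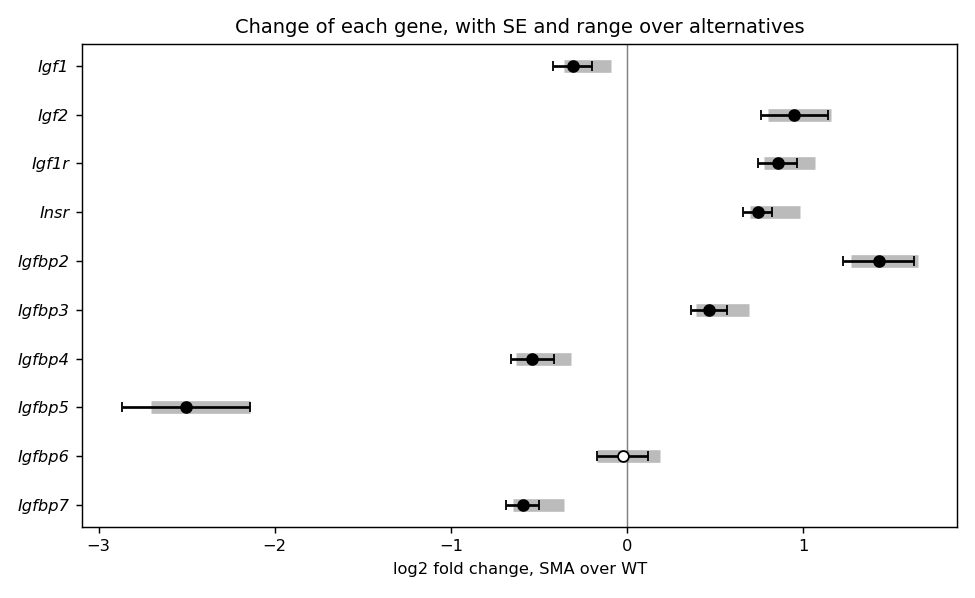
Log2 fold change of SMA over WT (horizontal axis) for each gene, with filled points where the adjusted p was under 0.05 and an open point for Igfbp6, whiskers for the SE and grey bars for the range over 18 alternative analyses. Igfbp5 lies farthest below 0 at -2.50 and Igfbp2 farthest above at 1.43, and the grey bar of Igfbp6 alone crosses 0.

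Of the 6 binding protein genes, 2 rose, 3 fell and 1 did not pass. Igfbp5 (chromosome 1, 72857932 to 72874884, minus strand), the binding protein gene known for its expression in differentiating muscle cells and its affinity for extracellular matrix, had 34.7, 42.4, 19 and 33.0 CPM in SMA 1 to 4 and 180, 117, 274, 78.4 and 267 CPM in WT 1 to 5. The WT libraries were widely spread, with WT 3 and WT 5 high and WT 4 low, yet all lay above the SMA libraries. Its mean was 32.3 ± 9.76 CPM in SMA and 183 ± 87.4 CPM in WT (SD, n = 4 and 5). The fitted level was 5.67-fold lower in SMA, a log2 fold change of -2.50 ± 0.36 (SE; adjusted p = 0.00013, edgeR), and 1.47% of all tested genes had a larger absolute change.

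Igfbp2 (chromosome 1, 72824503 to 72852474, plus strand), a binding protein gene known from fetal tissues, was the scarcest of the family, with 239, 200, 198 and 254 counts in SMA 1 to 4 and 64, 85, 60, 69 and 36 counts in WT 1 to 5. These were 5.33 to 7.13 CPM in SMA and 1.28 to 2.81 CPM in WT, again with no overlap and with WT 5 the lowest. It rose 2.69-fold, by 1.43 ± 0.20 on the log2 scale (SE; adjusted p = 0.000102, edgeR).

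Igfbp2 and Igfbp5, the binding protein genes with the steepest rise and the steepest fall, are neighbours. They lie tail to tail on chromosome 1 with 5.5 kb between their ends in GENCODE M21. Their upstream sequences are shown for comparison, as 250 bases before the RefSeq start site on GRCm38.p6 with each CG in capitals. Igfbp2 (chr1:72824230-72824479, plus strand, the first of 2 RefSeq starts) held 14 CG and 67.2% G or C, and Igfbp5 (chr1:72874866-72875115, minus strand) held 10 CG and 58.8% G or C, against medians of 6 CG and 52.4% over all 32851 windows of that length. Methylation and factor binding were not measured here.
Igfbp2: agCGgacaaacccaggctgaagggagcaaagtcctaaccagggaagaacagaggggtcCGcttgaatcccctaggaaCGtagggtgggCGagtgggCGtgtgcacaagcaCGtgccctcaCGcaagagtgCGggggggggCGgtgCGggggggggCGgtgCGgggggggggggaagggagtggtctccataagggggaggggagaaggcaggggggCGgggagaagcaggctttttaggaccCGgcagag
Igfbp5: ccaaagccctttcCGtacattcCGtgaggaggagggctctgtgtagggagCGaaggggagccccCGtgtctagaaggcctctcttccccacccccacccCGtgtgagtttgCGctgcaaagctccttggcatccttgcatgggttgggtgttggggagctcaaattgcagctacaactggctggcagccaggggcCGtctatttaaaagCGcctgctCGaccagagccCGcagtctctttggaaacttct

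Igfbp3 (chromosome 11, 7206086 to 7213923, minus strand), which encodes the main carrier of IGFs in blood, had 118, 110, 114 and 95.0 CPM in SMA 1 to 4 and 81.1, 92.6, 79.8, 76.1 and 66.5 CPM in WT 1 to 5. SMA 4 and WT 2 came close to each other but did not overlap. Igfbp3 rose by 0.47 ± 0.10 on the log2 scale (SE; adjusted p = 0.00195, edgeR). The gene next to it, Igfbp1, 3.5 kb away, encodes a binding protein made mainly by liver and had 1 count in SMA 1 and 0 in the other 8 libraries, so it could not be tested.

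Igfbp4 and Igfbp7 both fell by a moderate amount. Igfbp4 (chromosome 11, 99041244 to 99054392, plus strand), whose product restrains IGF action until it is cleaved by the protease PAPP-A, had 80.3, 75.8, 70.2 and 77.1 CPM in SMA 1 to 4 and 114, 132, 106, 117 and 80.7 CPM in WT 1 to 5. SMA 1 was just below WT 5, the low WT library, and the other WT libraries were well above. The log2 fold change was -0.54 ± 0.12 (SE; adjusted p = 0.00264, edgeR), and scaling to total counts ended the edgeR call, at -0.32 with an adjusted p of 0.0973. Igfbp7 (chromosome 5, 77349240 to 77408041, minus strand), a secreted protein gene of low IGF affinity associated with blood vessels, had 106, 117, 121 and 110 CPM in SMA 1 to 4 and 145, 183, 162, 194 and 172 CPM in WT 1 to 5. The groups stood clear of each other on these scaled levels, and Igfbp7 fell by 0.59 ± 0.094 (SE; adjusted p = 0.000249, edgeR). The end of Igfbp7 overlaps exons of Polr2b on the opposite strand, so some of its reads may be shared if strand was not used.

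Igfbp6 (chromosome 15, 102144362 to 102149511, plus strand), which encodes a binding protein that prefers IGF2, had 29.8 to 36.6 CPM in SMA with a median of 35.8 CPM and 24.0 to 45.0 CPM in WT with a median of 35.4 CPM. The SMA libraries lay within the WT range. Its log2 fold change was -0.02 ± 0.15 (SE; adjusted p = 0.902, edgeR), and its sign turned under some alternatives, between -0.17 and 0.19.

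The make-up of the binding protein transcripts shifted with Igfbp5. The summed level of the 6 genes was 352 to 386 CPM in SMA and 501 to 660 CPM in WT. Igfbp5 took 9.06%, 11.0%, 5.18% and 9.38% of their counts in SMA 1 to 4 and 32.1%, 20.4%, 41.5%, 15.6% and 43.6% in WT 1 to 5. The lowest WT share was above the highest SMA share. Igfbp3 took 29.4% ± 1.96 in SMA and 13.8% ± 2.21 in WT, and Igfbp2 took 1.68% ± 0.291 in SMA and 0.404% ± 0.125 in WT (SD, n = 4 and 5). For Igfbp4 the shares were 20.4% ± 1.25 in SMA and 19.2% ± 4.47 in WT, for Igfbp6 9.26% ± 0.65 in SMA and 6.1% ± 1.5 in WT, and for Igfbp7 30.6% ± 2.16 in SMA and 29.8% ± 5.66 in WT (SD, n = 4 and 5). These shares are given as a description, with no test. Shares of counts weigh each gene by its transcript length, and per kb of exon they differed. Igfbp5 then took 1.65% to 3.69% in SMA and 5.12% to 17.9% in WT, a difference between the means of -9.14 percentage points, against -22.0 from counts. Igfbp3 took 18.8% ± 1.2 in SMA and 9.94% ± 1.02 in WT (SD, n = 4 and 5), a difference of 8.86 percentage points, against 15.6 from counts. For Igfbp4 and Igfbp7 the sign turned: per kb the SMA mean was below that of WT, at 9.27% ± 0.765 in SMA and 9.77% ± 1.53 in WT for Igfbp4 and at 50.6% ± 2.27 in SMA and 55.4% ± 4.95 in WT for Igfbp7 (SD, n = 4 and 5).

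**Figure D3:**
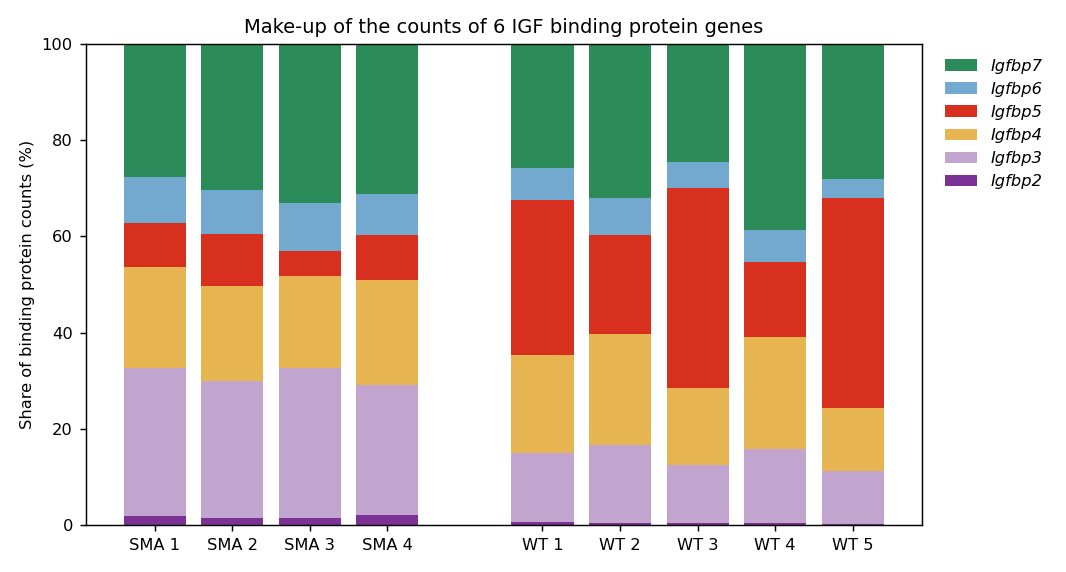
Share in percent of the counts of 6 binding protein genes, not corrected for transcript length, taken by each gene (vertical axis) in each library, SMA on the left and WT on the right. Igfbp5 (red) takes 5.18% to 11.0% in SMA and 15.6% to 43.6% in WT, and Igfbp3 (light purple) takes 27.0% to 31.1% in SMA and 10.9% to 16.2% in WT.

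Levels of different genes were compared per kb of exon (CPM per kb, with exon lengths merged over all transcripts of GENCODE M21). Igf2 was the most abundant of the family in both groups, at 553 ± 93.7 in SMA and 287 ± 68.9 in WT (SD, n = 4 and 5), and Igfbp7 came next, at 93.9 ± 5.43 in SMA and 141 ± 15.7 in WT. In SMA the order then ran Igfbp3, Igfbp6, Igfbp4, Insr, Igf1, Igfbp5, Igf1r and Igfbp2. Libraries overlapped between Igfbp3 and Igfbp6 and between each neighbouring pair from Igf1 to Igfbp2. In WT it ran Igfbp6, Igfbp5, Igfbp3, Igfbp4, Igf1, Insr, Igf1r and Igfbp2, and the neighbours from Igfbp6 to Igfbp4 overlapped. Igfbp5 moved to 5.37 ± 1.63 CPM per kb in SMA, against 30.5 ± 14.5 CPM per kb in WT. Insr stood above Igf1 in SMA, at 8.17 ± 0.628 against 5.82 ± 0.366 CPM per kb, and below it in WT, at 4.89 ± 0.343 against 7.21 ± 1.17 CPM per kb. Lengths of the transcripts used in this muscle were not measured, so the order between genes is approximate.

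**Figure D4:**
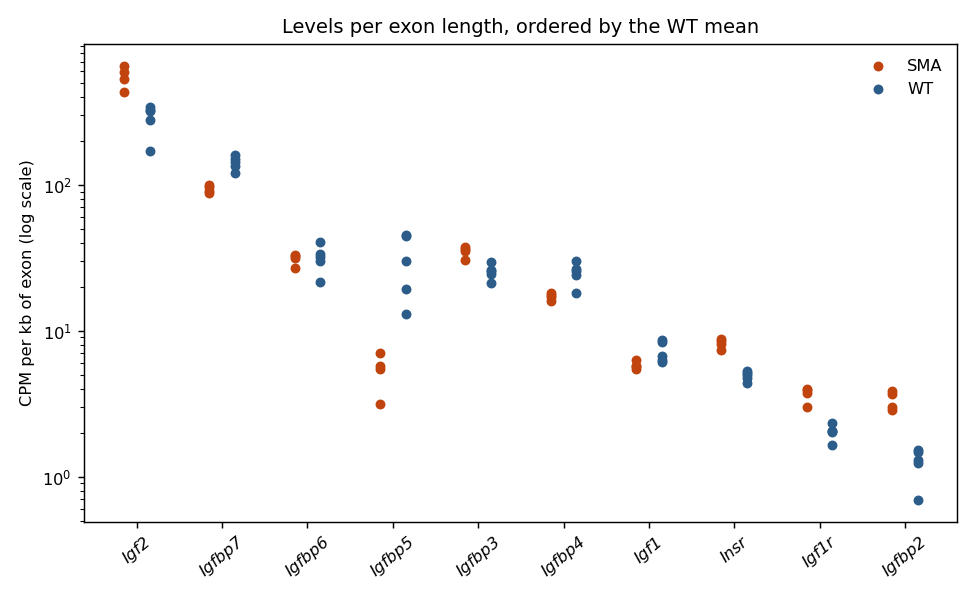
Level per exon length (CPM per kb, log axis) of each gene in the SMA (orange) and WT (blue) libraries, with genes ordered by their WT mean. Igf2 lies at 434 to 655 in SMA and 171 to 340 in WT, and Igfbp2 lies at 2.88 to 3.86 in SMA and 0.691 to 1.52 in WT.

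Within groups, the same libraries tended to hold the extremes. WT 5 was the lowest WT library for 7 of the 10 genes and the highest for Insr, and WT 2 was the highest for 6. SMA 3 was the lowest SMA library for 5 genes, namely Igf2, Igf1r, Insr, Igfbp4 and Igfbp5, and the highest for Igfbp6 and Igfbp7. Without WT 5 and SMA 3 the same counts of 5 higher and 4 lower were called by edgeR. Relative spread was widest for Igfbp5, with a coefficient of variation of 30.3% in SMA and 47.7% in WT, and for Insr it was 7.69% in SMA and 7.01% in WT.

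Markers of other cells in muscle moved as well, in bulk RNA that mixes them. Among all tested genes 27.2% were lower and 27.7% higher, so single calls in these short lists were common. Of 8 fibroblast and fibro-adipogenic markers 6 fell and 1 rose, with a summed level of 1860 to 2730 CPM in SMA and 3130 to 5570 CPM in WT. Most of the difference between these sums was collagen. Col1a1 had a mean of 485.6 CPM in SMA and 1411 CPM in WT, and Col3a1 1568 CPM in SMA and 2450 CPM in WT. Dcn, Lum, Dpt and Pi16 also fell and Ly6a did not pass. Pdgfra rose, with a mean of 47.64 CPM in SMA and 37.67 CPM in WT. Of 9 macrophage markers 7 fell and 0 rose, at 83.1 to 107 CPM in SMA and 135 to 171 CPM in WT. All 5 tendon markers fell, at 60.4 to 108 CPM in SMA and 113 to 247 CPM in WT. Among mural cell markers 3 of 6 fell, at 281 to 374 CPM in SMA and 559 to 923 CPM in WT. Most of the difference between the mural sums was Acta2, with a mean of 119.4 CPM in SMA and 517.4 CPM in WT. Rgs5 and Kcnj8 also fell, and Pdgfrb, Cspg4 and Myh11 did not pass. The sums of the fibroblast, macrophage, tendon and mural lists moved the same way as Igfbp4, Igfbp5 and Igfbp7. So did the sums of the muscle fibre list above and the erythroid list below. The part of any of these lists in those falls was not tested. Endothelial markers overlapped between groups, at 508 to 594 CPM in SMA and 524 to 663 CPM in WT. Of 7 of them 2 were lower and 0 higher, so that 28.6% were called, near the share of all tested genes that were lower.

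Other marker lists were higher in SMA, where 27.7% of all tested genes were higher and 27.2% lower. Of 6 Schwann cell markers 5 rose, at 986 to 2230 CPM in SMA and 386 to 885 CPM in WT. Of 6 satellite cell markers 4 rose and 1 fell, at 107 to 126 CPM in SMA and 78.5 to 88.2 CPM in WT. Most of the difference between the satellite cell sums was Sdc4, with a mean of 74.65 CPM in SMA and 39.48 CPM in WT. Pax7, Myf5 and Calcr also rose, Vcam1 fell and Chodl did not pass. The part of the Schwann or satellite cell list in the rises of Igf2, Igfbp2, Igfbp3 or the receptors was not tested. Adipocyte markers overlapped in sum, at 539 to 678 CPM in SMA and 322 to 761 CPM in WT, with 1 of 7 higher and 3 lower. Fabp4 made up most of that sum and rose, with a mean of 571.3 CPM in SMA and 386.7 CPM in WT. Ucp1, Lep and Plin1 fell. The mean of Ucp1 was 0.90 CPM in SMA and 43.33 CPM in WT, where WT 5 was the highest at 119 CPM. All 3 erythroid markers tested fell, at 603 to 958 CPM in SMA and 1220 to 2040 CPM in WT. Of 5 tested bone and cartilage markers 4 fell, at 6.39 to 10.8 CPM in SMA and 10.8 to 162 CPM in WT. WT 1 and WT 2 held the highest of these sums, at 162 and 67.8 CPM, and the other WT libraries had 10.8 to 21.5 CPM. Of the bone and cartilage markers that fell, Acan alone did not overlap between groups. Hepatocyte markers summed to 0.923 to 6.85 CPM in SMA and 0.176 to 0.886 CPM in WT, and 4 of the 5 were too low to test. Serpina1a, the 1 tested, rose, with a mean of 0.96 CPM in SMA and 0.46 CPM in WT. Most of the highest sum was Apoa1 in SMA 4, at 4.97 CPM. No matched marker in any of these lists was at 0 in all libraries.

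The rest of the pathway held changes in both directions. Of 67 listed genes 62 were tested, and 21 rose, 13 fell and 28 did not pass, so that 54.8% were called, near the 54.9% of all tested genes. The median log2 fold change was 0.129, against 0.00596 for all tested genes. This share depended on the scaling. With scaling to total counts 45 of the 62 were called by edgeR, 36 higher and 9 lower. Of all 15873 tested genes 8549 were then called, 6385 higher and 2164 lower.

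Among the genes for binding, carriage and clearance, 1 rose and 2 fell of 4 tested. Igf2r, the receptor gene whose product clears IGF2 by taking it to lysosomes, had 232, 230, 147 and 234 CPM in SMA 1 to 4 and 129 to 154 CPM in WT. It rose by 0.57 ± 0.13 (SE) on the log2 scale, with SMA 3 inside the WT range. Igfals, the gene of the acid-labile subunit that holds IGF and IGFBP3 in serum, was scarce, at 0.252 to 0.674 CPM in SMA and 0.804 to 1.52 CPM in WT, and fell by 1.21 ± 0.32 (SE). Tmem219, a cell surface receptor gene for IGFBP3, fell by 0.50 ± 0.094 (SE), a call that scaling to total counts ended, at an edgeR adjusted p of 0.114.

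Of 7 tested genes for proteases of the binding proteins and their inhibitors, 1 rose and 3 fell. Htra1, a secreted serine protease gene, had 25.4 to 29.0 CPM in SMA and 40.9 to 61.3 CPM in WT and fell by 0.96 ± 0.11 (SE). Adam12, a metalloprotease gene, had 7.83 to 9.26 CPM in SMA and 13.2 to 18.8 CPM in WT and fell by 0.85 ± 0.11 (SE). Pappa, which encodes the protease that cleaves IGFBP4, had 2.80 to 3.62 CPM in SMA and 1.70 to 2.73 CPM in WT and rose by 0.55 ± 0.18 (SE). Its edgeR call was lost without SMA 4, at an adjusted p of 0.0637, and with sex in the model, at 0.0704.

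In the growth hormone list 3 genes rose and 1 fell of 8. Stat5a, a transcription factor gene of growth hormone signalling, had 53.9 to 68.7 CPM in SMA and 21.0 to 28.7 CPM in WT and rose by 1.29 ± 0.10 (SE). Socs3, an inhibitor of cytokine receptors, rose by 0.61 ± 0.13 (SE). Ghr, the growth hormone receptor gene, had a log2 fold change of 0.06 ± 0.12 (SE; adjusted p = 0.698, edgeR), and passed at 0.0243 under scaling to total counts and at 0.0076 without WT 5 and SMA 3.

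The genes that carry the signal inside the cell were divided. Of 10 adaptor and substrate genes 1 rose and 3 fell. Irs1, a main substrate of both receptors, had 83.2 to 109 CPM in SMA and 140 to 192 CPM in WT and fell by 0.76 ± 0.11 (SE), and Grb2, an adaptor to the Ras pathway, fell by 0.64 ± 0.094 (SE). Irs2, the other main substrate gene, had 14.9, 18.0, 4.86 and 14.0 CPM in SMA 1 to 4 and 3.91, 4.52, 5.83, 2.59 and 23.6 CPM in WT 1 to 5. WT 5 was the highest of all libraries and SMA 3 lay within the WT range. Irs2 did not pass, with a log2 fold change of 0.67 ± 0.57 (SE) and an adjusted p of 0.338 by edgeR, and without WT 5 it was 1.62 with an adjusted p of 0.00263.

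Of 12 genes of the PI3-kinase and AKT step 3 rose and 1 fell. Pik3r1, the regulatory subunit gene of PI3-kinase, had 75.0 to 103 CPM in SMA and 31.3 to 35.6 CPM in WT and rose by 1.43 ± 0.094 (SE). Akt2, the AKT gene most tied to glucose uptake, had 198 to 226 CPM in SMA and 124 to 138 CPM in WT and rose by 0.67 ± 0.074 (SE). For Akt1 the log2 fold change was 0.0033 ± 0.093 (SE; adjusted p = 0.979, edgeR).

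Of 10 genes of mTORC1 and translation 5 rose and 1 fell. Eif4ebp1, a repressor of cap-dependent translation, had 111 to 138 CPM in SMA and 47.0 to 66.5 CPM in WT and rose by 1.05 ± 0.11 (SE), and Tsc2, an inhibitor of mTORC1, rose by 0.74 ± 0.10 (SE). Of 4 FoxO genes 2 rose and 1 fell. Foxo1 had 28.3 to 54.6 CPM in SMA and 19.6 to 26.4 CPM in WT and rose by 1.02 ± 0.17 (SE), and Foxo6 had 8.82 to 12.9 CPM in SMA and 21.5 to 28.7 CPM in WT and fell by 1.17 ± 0.13 (SE). In the list of IGF mRNA-binding proteins and imprinted neighbours 5 rose and 1 fell of 7 tested. Igf2bp2, whose product binds Igf2 mRNA, had 18.9, 16.3, 13.0 and 19.1 CPM in SMA 1 to 4 and 4.61 to 7.96 CPM in WT and rose by 1.34 ± 0.16 (SE).

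**Figure D5:**
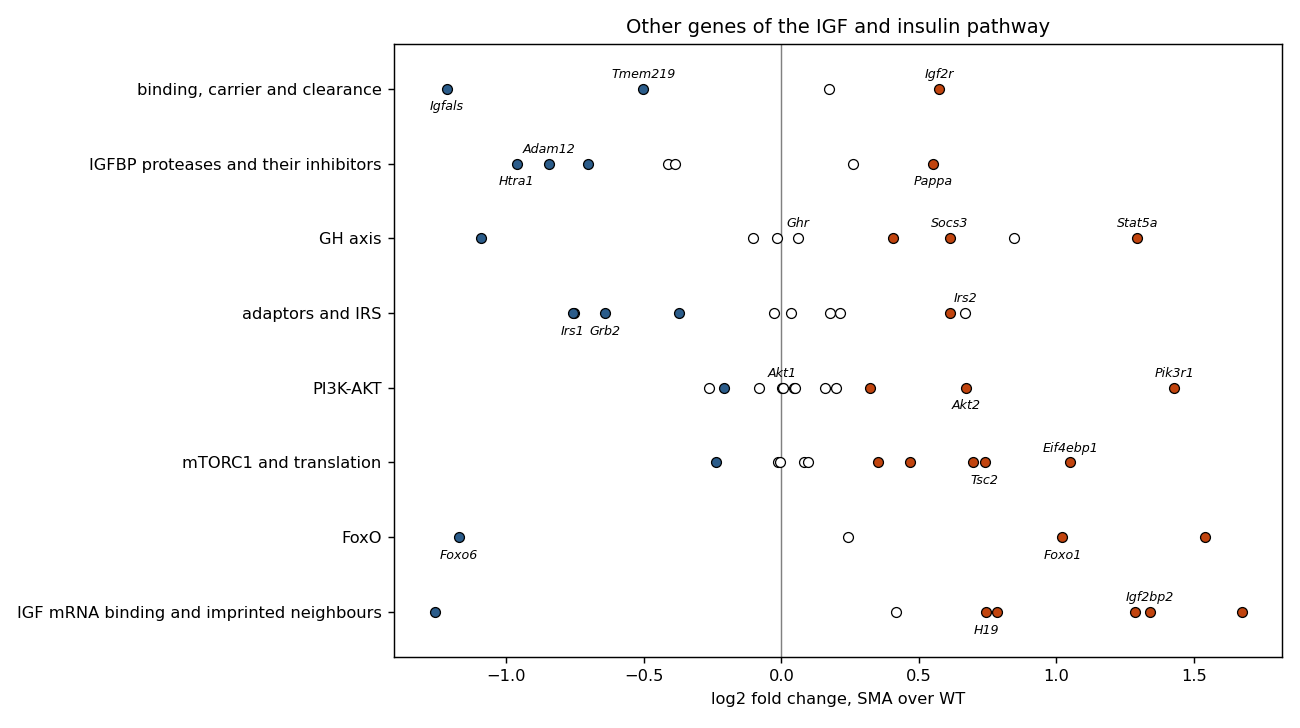
Log2 fold change of SMA over WT (horizontal axis) of the 62 tested pathway genes, 1 row per list, filled orange where a gene rose, filled blue where it fell and open where the adjusted p was 0.05 or above. Named genes are labelled. Pik3r1, Stat5a and Igf2bp2 lie right of 1 and Igfals and Foxo6 lie left of -1.

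For the 3 family genes with the lowest adjusted p, the genes with the most similar profile over the 9 libraries were sought among 10695 others with a mean of at least 5 CPM, by the root mean square difference of centred log2 CPM. Insr was nearest to Stard7, at 0.048, and to Jmy, at 0.0603, where a flat profile would lie at 0.38. Igf1r was nearest to Zfp408, at 0.0464, and Arhgef40, at 0.0696, with a flat profile at 0.455. For Igfbp2 the nearest were Fbp2, the muscle fructose bisphosphatase gene, at 0.14 and Igf2bp2 at 0.15, with a flat profile at 0.786. These distances describe likeness in these libraries, which also share the difference between groups.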

How the data were processed

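Total RNA of hindlimb muscle (200 ng, integrity number above 7, per the labels' protocols) entered a stranded mRNA preparation and was sequenced as paired reads of 75 bases. The submitters' processing notes name build mm10 and the tools HTSeq 0.9.1 and DESeq2 1.16.1, without saying what each did. Aligner, annotation and strand setting are not given in the sources used. The count table deposited by the authors holds raw whole-number counts per gene. The second deposited table holds a signal, which is the count over a size factor of its library (0.734 to 1.23, equal to median-of-ratios factors recomputed from the counts), and served only for that check. Of 32594 genes, 9145 had no count. No pair of replicates agreed within sampling noise (chi-square per degree of freedom 12 to 87.5).

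edgeR 4.0.16 (R 4.3.3) was run on the counts with filterByExpr, TMM scaling and a quasi-likelihood fit of group alone over 15873 genes and Benjamini-Hochberg adjustment at 0.05. SE is the size of the log2 fold change divided by the square root of F. Log2 CPM used a prior count of 2. Count ratios (0.5 added) were compared by exact permutation tests with SciPy 1.17.1. DESeq2 1.42.0 and limma 3.58.1 served as alternatives. Gene positions are those of GENCODE M21 and sequences those of RefSeq. The procedure was tested on simulated data. It called 45.2% of genes given a 1.5-fold change, 72.1% of those given a 2-fold change and 97% of those given a 4-fold change. Of unchanged genes it called 0.0195%. A gene that did not pass may therefore still have changed.

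The family, the pathway and marker lists and the alternatives were chosen with earlier results of these data known. All 10 family genes are named. Pathway genes were named where they had 1 of the 2 lowest adjusted p-values of their list, or as Igfals, Igf2r, Ghr, Irs1, Irs2, Akt1, Akt2, Igf2bp2, H19, Pappa and Htra1. Of the erythroid markers, 2 did not match a symbol of the table. Counting error is small at these depths except for Igfbp2, Mir483 and genes near 1 CPM.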

Additional observations from a re-analysis of the deposited data

How the results depend on the processing

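Over 18 alternative analyses (RLE or total count scaling, DESeq2, limma-voom, other low-count filters, each library left out, a replicate block, a sex term, and WT 5 and SMA 3 left out together) Igf2, Igf1r, Insr, Igfbp2, Igfbp3, Igfbp5 and Igfbp7 kept their direction and their call, and Igfbp6 was not called in any. Scaling to total counts put the median change over all genes at 0.24 on the log2 scale, against 0.00596, and gave 6385 genes higher and 2164 lower, against 4393 and 4319. Under it Igf1 was at -0.089 and Igfbp4 at -0.322, and neither was called, so 7 of the 10 genes were. Of the 62 tested pathway genes 45 were called under it, against 34. The separation of groups was read from TMM-scaled levels. Over unscaled totals the groups overlapped for Igfbp7, with 4313 of 30746646 counts in SMA 3 and 3288 of 24917665 in WT 1. They overlapped for Igfbp4 too, with 2805 of 33035889 counts in SMA 1 and 2276 of 34094645 in WT 5. With a sex term Igf1 was at -0.275 and was not called. Leaving out 1 library put Igf1 between -0.36 and -0.24. Per kilobase of exon, the difference in share between SMA and WT was 8.86 percentage points for Igfbp3 and -9.14 for Igfbp5, against 15.6 and -22.0 from counts, and it changed sign for Igfbp4 (-0.505 against 1.18) and Igfbp7 (-4.86 against 0.78), shares that have no test. The replicate numbers are shared between groups, and deviations of same-numbered libraries had correlations of 0.118, -0.00555, -0.0482 and 0.0971. Libraries of different numbers had correlations from -0.318 to 0.174. So few correlations cannot tell whether same-numbered libraries share a litter or a preparation, and the labels do not say. With the replicate block 7879 genes were called, against 8712, and 9 of the 10 family genes. No SMA library correlated best with the WT library of its own number, and of the WT libraries only WT 1 correlated best with its own. Counting depth limits Igfbp2 in WT, at 36 to 85 counts, and left Igfbp1 untested. By Dixon's test on CPM, and on log2 values for the ratios, no library stood apart from its group in any of 24 sets of values (10 genes and 2 ratios in each group). On log2 CPM, a scale chosen after seeing the data, 1 of the 20 sets of gene values held such a library: WT 5 for Igfbp2, at 1.28 CPM, had a gap of 0.738 of the WT range, against 0.657 on CPM and a critical value of 0.71.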
